A study of Mus musculus with 67 samples.

Results

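The subject is a set of 1184 of the 111638 open chromatin elements in the deposited table, those whose accessibility stood out in p3 neural progenitors at day 6 of differentiation but not at day 4. They were chosen by measured values. The p3 mean on the variance-stabilized (VST) scale, which is close to log2 of a normalized count at high counts, had to exceed each of the p0-1, p2 and pMN means by at least 1.5 at day 6. It had to exceed the highest of them by less than 0.5 at day 4, and to reach at least 7 at day 6, a level that corresponds to a normalized count of 115. A further 1795 elements passed the same day 6 limits with a p3 excess of 0.5 or more already at day 4, and they serve below as the set for comparison. The 1184 elements make up 39.7% of the 2979 elements with the day 6 excess.

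Accessibility was measured by CaTS-ATAC, in which fixed cells were tagmented with Tn5, stained for transcription factors inside the cell and sorted by flow cytometry before sequencing. All 67 samples came from HM1, 1 mouse embryonic stem cell line, and the labels give no difference in genotype between groups. Cells were cultured as neuromesodermal progenitors (NMPs) with bFGF and CHIR and then exposed from day 3 to retinoic acid at 100 nM together with the Smoothened agonist SAG at 0, 10, 100 or 500 nM. NMPs were taken at day 3 (3 samples). The sorted neural progenitors (NPs) were SOX2+ and were p3 (NKX2.2+, OLIG2-; 100 and 500 nM SAG; 5, 5 and 4 samples at days 4, 5 and 6), pMN (OLIG2+; 100 and 500 nM; 6, 5 and 4 samples), p2 (NKX6.1+, PAX6+; 10 and 100 nM; 6 at each day) and p0-1 (PAX6+, NKX6.1-; 0 and 10 nM; 6, 6 and 5). These are cells of a culture, and each group is defined by its gate. Because each value sums many sorted cells, more cells with an open element and a more open element in the same cells cannot be told apart.

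Neural progenitors along the ventral to dorsal axis of the spinal cord take their identity from graded Sonic hedgehog, which is secreted by the notochord and the floor plate. The p3 domain lies just dorsal to the floor plate, expresses Nkx2-2 and Nkx2-9 and gives rise to V3 interneurons, whereas pMN cells express Olig2 and give rise to motor neurons. FOXA2 is a forkhead pioneer factor that can bind closed chromatin, and it is best known from floor plate and endoderm. RFX factors bind X-box motifs and are best known as regulators of genes of cilia, the organelles through which Hedgehog signals are transduced.

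The central 300 bp of 4 of these elements are given here from the mouse reference (GRCm38, the sequence of mm10, plus strand), as elements with a very large p3 excess and as examples of the motifs counted below. In capitals are matches on either strand to an RFX half-site (GTTGCCNNG); none of the 4 windows held a forkhead core (TNTTTAC, which includes TGTTTAC). The windows nearest to Tbx20 and Ankrd50 had the largest day 6 excess in the set and held neither motif, and the windows of Metrnl and Rufy1 held RFX matches.
Tbx20 element, chr9:24860975-24861274: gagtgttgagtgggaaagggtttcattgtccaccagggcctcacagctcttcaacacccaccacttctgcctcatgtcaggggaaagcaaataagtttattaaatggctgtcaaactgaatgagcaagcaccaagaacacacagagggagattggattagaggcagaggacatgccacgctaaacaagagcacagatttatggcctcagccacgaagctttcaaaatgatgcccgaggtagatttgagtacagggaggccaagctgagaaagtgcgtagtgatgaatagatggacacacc
Ankrd50 element, chr3:38625648-38625947: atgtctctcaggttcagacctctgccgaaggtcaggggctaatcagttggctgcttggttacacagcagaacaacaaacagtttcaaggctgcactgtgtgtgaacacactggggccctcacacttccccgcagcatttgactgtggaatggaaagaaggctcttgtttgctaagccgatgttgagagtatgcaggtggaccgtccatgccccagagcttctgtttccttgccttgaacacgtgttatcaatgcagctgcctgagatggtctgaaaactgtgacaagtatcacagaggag
Metrnl element, chr11:121738761-121739060: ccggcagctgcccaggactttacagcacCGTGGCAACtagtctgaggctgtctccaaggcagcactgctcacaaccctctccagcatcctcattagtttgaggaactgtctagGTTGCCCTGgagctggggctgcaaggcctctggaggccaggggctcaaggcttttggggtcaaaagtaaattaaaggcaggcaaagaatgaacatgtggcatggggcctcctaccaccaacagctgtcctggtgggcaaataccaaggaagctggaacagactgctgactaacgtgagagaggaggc
Rufy1 element, chr11:50407422-50407721: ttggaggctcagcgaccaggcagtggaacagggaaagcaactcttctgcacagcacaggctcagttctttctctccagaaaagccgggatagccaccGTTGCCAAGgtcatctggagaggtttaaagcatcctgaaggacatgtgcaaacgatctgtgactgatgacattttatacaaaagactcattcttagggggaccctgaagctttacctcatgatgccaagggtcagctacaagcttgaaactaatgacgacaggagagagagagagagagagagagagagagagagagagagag

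The median level of the elements in p3 was higher at day 5 than at day 4 and higher again at day 6, while the medians of the other NP types changed little. The median VST level over the 1184 elements was 4.36 in NMPs. At day 4 it was 5.29 in p0-1, 5.44 in p2, 5.47 in pMN and 5.81 in p3. At day 6 it was 5.35, 5.54 and 5.55 in p0-1, p2 and pMN, and 7.69 in p3. In normalized counts the p3 median went from 46.2 at day 4 through 122 at day 5 to 203 at day 6, against 33.2, 35.9 and 36.5 in pMN. The day 4 and day 6 levels of the NP types are what the rule selected on and carry no test. The median p3 excess over the highest other type was 0.20 at day 4, 1.19 at day 5 and 1.91 at day 6, and in 880 of the 1184 elements (74.3%) p3 was already the highest type at day 4, by less than the limit. In the comparison set the excess was 0.95, 1.83 and 2.41.

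**Figure D1:**
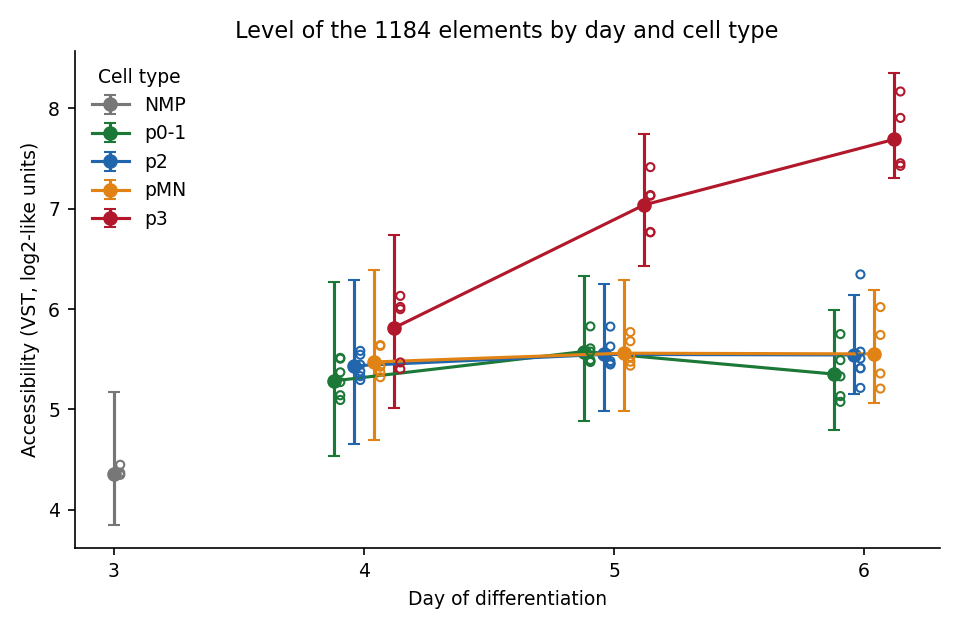
VST level (y axis) of the 1184 elements by day of differentiation (x axis) for NMP, p0-1, p2, pMN and p3. Filled points are medians over elements of the group mean, bars run from the lower to the upper quartile of elements, and open circles are the medians of single samples; the p3 medians rise from 5.81 to 7.69 while those of the other NP types stay between 5.29 and 5.58.

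The smallest day 6 excesses in the set belonged to elements nearest to 4932438H23Rik and Mir3092 (1.5001 and 1.5003), and elements nearest to 4930545H06Rik and Pitpnb (1.4986 and 1.4981) fell just outside. At day 4, elements of Kif6 and Foxk1 (0.4997 for both) were inside, and those nearest to 4930512J16Rik and Ephx4 (0.5004 and 0.5005) outside. On the day 6 level, elements nearest to Katnal1 and 4933402D24Rik (7.0003 and 7.001) were inside, and those nearest to Astn2 and Lingo1 (6.997 and 6.996) outside. A day 4 limit of 0.25 kept 678 elements and a limit of 1 kept 2152.

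Not every element in the set was gained in p3. The p3 mean rose by at least 1 VST unit from day 4 to day 6 in 972 of the 1184 elements (82.1%), of which 745 changed by less than 1 in the highest other type. In 112 elements it rose by 0.5 to 1, and in 100 (8.45%) it rose by less than 0.5 or fell. Over those 100 elements the median p3 level was 7.91 at day 4, 7.87 at day 5 and 7.77 at day 6. The median of the highest other type went from 7.76 through 6.69 to 5.98. The rule requires such a fall between days 4 and 6 where p3 rises by less than 0.5. The median level of the 100 elements in NMPs was 5.03, below their day 4 medians in p3 and in the highest other type. These medians do not hold for each element, and in 39 of the 100 the p3 mean fell from day 4 to day 6. The highest other type rose by at least 1 in 196 elements, in which p3 rose further, as the rule requires.

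**Figure D2:**
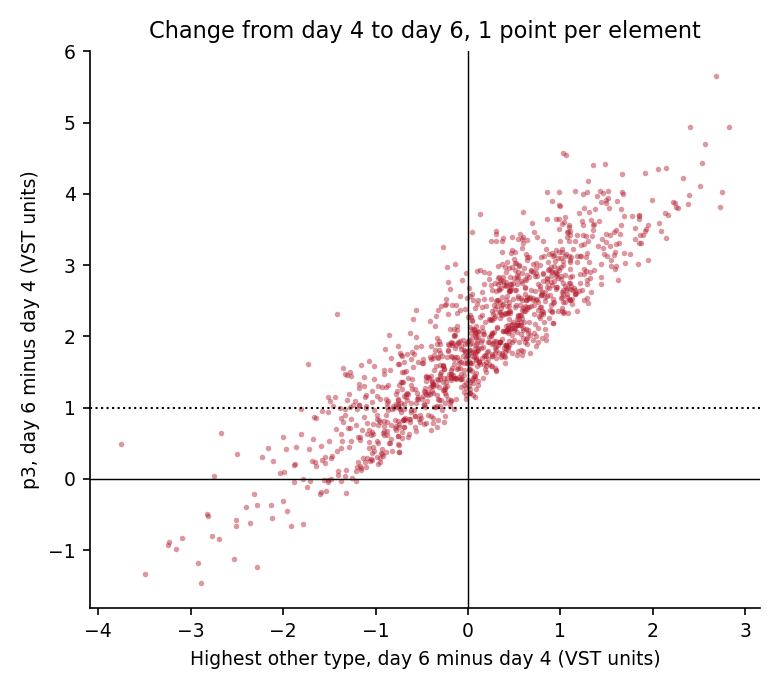
Change from day 4 to day 6 in p3 (y axis) against that in the highest other NP type (x axis), both in VST units, with 1 point for each of the 1184 elements; the dotted line marks a p3 rise of 1. The rule requires p3 to gain on the other types and so sets the lower edge of the cloud, along which 972 elements lie above the line and 100 lie below a rise of 0.5.

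The extremes of both kinds show the contrast. The largest p3 rise was at the element 179 kb upstream of Tnks, which went from 3.22 ± 3.60 normalized counts at day 4 (SD, n = 5) through 141 ± 45.1 (n = 5) to 534 ± 55.1 (n = 4). The next were elements nearest to Dnm3os, from 13.0 ± 6.79 to 714 ± 197, Gphb5, from 16.8 ± 4.02 to 849 ± 57.3, and Myh2, from 6.36 ± 5.70 to 369 ± 76.3. All 4 also rose in other types, the highest of which gained between 2.41 and 2.83 VST units. The largest fall of the other types was in an exon of Fmn2, which encodes an actin-nucleating formin. There pMN went from 629 ± 113 (SD, n = 6) to 34.3 ± 16.4 (n = 4) and p3 from 225 ± 107 (n = 5) to 308 ± 120.5 (n = 4). At the elements of Akr1c12, 1700034J05Rik and Hs3st3b1 the highest other type fell by between 3.24 and 3.49 VST units, and p3 itself fell by 1.34, 0.93 and 0.89.

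Day 5 was not used to choose the elements, and it gave a test in separate samples. Members were higher in p3 than in pMN by a median of 1.42 VST units at day 5 (interquartile range 1.13 to 1.75), when the median over all 111638 elements was 0.03. With limma and Benjamini-Hochberg adjustment over all elements, at an adjusted p under 0.01 and a difference above 1, 993 of the 1184 elements (83.9%) were called higher in p3 and 0 lower, and 8.39% of all elements tested were called higher. Before adjustment, 1166 of the members and 55.8% of all elements had p under 0.05 in either direction. Against p2, 1002 members were called higher and 0 lower (8.33% of all elements higher; median difference 1.45), and against p0-1, 936 and 0 (9.47%; 1.43). Against all 3 types together, 798 members were called higher (67.4%; 5.69% of all elements). No sample overlap between p3 and pMN, with every p3 sample above, was seen for 1056 members and 16.8% of all elements. Within day 5, samples with the same replicate number varied together. The p3 and pMN samples carry replicate numbers 1 to 3, so samples of both SAG concentrations that share a number are not independent. The main fit, which gave the standard errors and adjusted p reported here, has no replicate block. With a block, 995 members were called higher in p3 than in pMN. The day 5 samples may share differentiations with the samples of day 4 and day 6 that chose the elements, which was not tested.

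**Figure D3:**
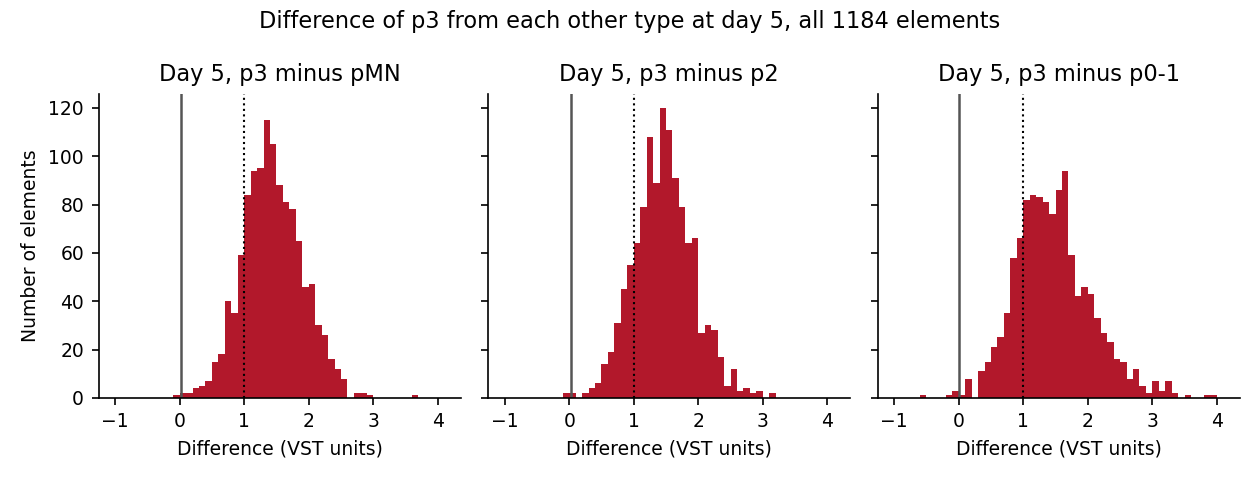
Number of elements (y axis) by the day 5 difference of p3 from each of pMN, p2 and p0-1 in VST units (x axis) for the 1184 elements; the dotted line marks the limit of 1 and the grey line the median over all 111638 elements. Nearly all elements lie above 0, with medians of 1.42, 1.45 and 1.43.

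The p3 excess over the highest other type at day 5 was at least 1.5, the day 6 limit, in 274 elements (23.1%; 2.21% of all elements), between 1 and 1.5 in 528, between 0.5 and 1 in 324, between 0 and 0.5 in 52 and at or below 0 in 6. All members were chosen to reach that limit at day 6 and not at day 5, so a lower share at day 5 is in part set by the choice. In the comparison set 1773 of 1795 elements (98.8%) were called higher in p3 than in pMN at day 5, with a median difference of 2.03. The 191 members not called at day 5 against pMN had a median p3 level of 5.70 at day 4, 6.50 at day 5 and 7.53 at day 6, against 5.70 in pMN at day 5. An element 22 kb upstream of Frmd4b, a gene for a scaffold protein with a FERM domain, had the lowest day 5 excess among the elements of the 11 genes with 3 or 4 members (-0.11; the lowest of all members was -0.51). Its p3 samples held 10.7 to 36.6 normalized counts at day 5 and 64.7 to 301 at day 6, while pMN held 14.2 to 24.8 and 13.0 to 35.0. The groups overlapped at day 5 (difference 0.10 ± 0.19 (SE), adjusted p = 0.709 by limma) and not at day 6, whose values chose the element.

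Differences of p3 from pMN were of like size at both SAG concentrations, and no member differed between the concentrations by the test. At 100 nM (3 p3 against 3 pMN samples) 958 members were called higher in p3 at day 5 and 0 lower, with 8.4% of all elements higher. At 500 nM (2 against 2) 469 were, with 2.77% of all elements higher, and 993 in a fit with a replicate block. The median difference was 1.43 at 100 nM and 1.42 at 500 nM. The count at 500 nM rested on single libraries, being 89 without pMN replicate 2, 186 without pMN replicate 3 and 1084 without p3 replicate 2; each of these leaves 1 sample in a group, which is assumed to vary like the 2 of the other. Between p3 at 500 and at 100 nM, 0 members and 0% of all elements were called at day 5, and 0 members and 0% of all elements at day 6. Before adjustment, 6 members at day 5 and 5 at day 6 had p under 0.05, and voom on recovered reads also called 0. The median difference of 500 from 100 nM was 0.08 at day 5 and 0.10 at day 6, with median standard errors of 0.27 and 0.33 per element, which limits what these few samples could detect. These errors are from the fit without a replicate block, and a fit with the block also called 0 members at both days. At day 4, which chose the elements, the sample medians over members in p3 were 5.40, 5.47 and 6.02 at 100 nM and 6.00 and 6.13 at 500 nM. The samples at 5.40 and 5.47 were also the shallowest of all samples, and the part of depth was not tested.

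Compared with NMPs, p3 cells at day 5 were higher at 1050 members and lower at 13, and 31.7% of all elements were called higher and 23.3% lower. The median difference was 2.54 (0.13 over all elements). In the comparison set 1703 of 1795 elements (94.9%, against 88.7% of members) were called higher and 7 lower, with a median of 2.99. The mean level in NMPs was below 5 in 842 members (71.1%, against 44.7% of all elements) and at least 7 in 61 (5.15%, against 26.8%). These shares were 75.4% and 3.45% in the comparison set, so a low level in NMPs was not particular to members. Between pMN and p0-1 at day 5, 58 members were called higher in pMN and 30 lower, with 7.92% and 3.48% of all elements, and the median difference was 0.00. Of the members these are 4.90% and 2.53%, and the shares were not tested against each other.

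Elements of the Hedgehog pathway list included 2 at Shh, the gene for the ligand. The element 9.6 kb upstream of the Shh start (chr5:28476172-28477133, in an intron of 9530036O11Rik) held 50.5, 24.6, 97.3, 84.0 and 95.2 normalized counts in the p3 samples of day 4, 218, 91.7, 255, 80.8 and 387 at day 5 and 148, 862, 203 and 1229 at day 6. In pMN it held 29.4, 24.8, 39.1, 10.1 and 46.9 at day 5 and 6.28, 56.3, 10.0 and 70.1 at day 6. All p3 samples lay above all pMN samples at day 5, and also at day 6, whose values chose the element. At day 6 both replicate 3 samples of p3 were more than 4 times as high as both replicate 2 samples. The p2 sample of day 6 at 100 nM, replicate 3, held 178, above the lowest p3 sample of that day (148). The day 5 difference from pMN was 2.25 ± 0.36 (SE), adjusted p = 6.67e-05. The other Shh element, 2.8 kb upstream, went in p3 from 118 ± 15.6 at day 4 (SD, n = 5) to 280.2 ± 95.1 at day 6 (n = 4), and was at 275 ± 16.5 in NMPs (n = 3). Gli2, a transcriptional effector of the pathway, had 1 element 57 kb upstream, which went from 21.2 ± 5.13 to 128 ± 50.7 in p3 and was at 17.1 ± 7.22 in pMN at day 6 (day 5 difference 2.15 ± 0.16 (SE), adjusted p = 2.39e-08). In p0-1 the Gli2 element was at 34.0 ± 30.2 at day 6, and the day 5 difference of p3 from p0-1 was 1.33 ± 0.21 (SE). In all, 2 of the 14 genes of the list had members, which were 3 of the 148 elements nearest to these genes (2.03%; members were 1.06% of all elements), and all 3 were called higher in p3 than in pMN at day 5.

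Foxa2 had 4 members, more than any other gene. The number of all elements nearest to Foxa2 is not given here, so the count does not show a concentration at this gene. The 4 members were spread over 41.8 to 161 kb downstream of the Foxa2 start and followed different courses. The most distant (chr2:147885998-147886655) held 40.4, 45.5, 116, 126 and 129.7 in p3 at day 4, 579, 336, 513, 313 and 658 at day 5 and 688, 907, 663 and 916 at day 6, and in pMN 107, 91.0, 154, 98.4 and 210.1 at day 5. The p3 and pMN groups did not overlap at day 5, when the difference was 1.77 ± 0.23 (SE), adjusted p = 7.37e-06. The element at 112 kb went from 65.6 ± 39.4 to 199 ± 78.1 in p3, with 19.1 ± 6.48 in pMN at day 6. The element at 78.2 kb was instead level in p3, at 1454 ± 194, 1478 ± 173 and 1454 ± 216 at days 4, 5 and 6, and in pMN went from 1171 ± 233 to 408 ± 77.7. The nearest, at 41.8 kb, was at 218 ± 73.5 at day 4, 310.3 ± 67.2 at day 5 and 132 ± 26.5 at day 6 in p3 and at 20.9 ± 9.86 in pMN at day 6. All 4 were called higher in p3 than in pMN at day 5. The element at 41.8 kb was not called against p2 (difference 0.86) or p0-1 (0.59) and overlapped with both. The element at the Foxa2 promoter was in the comparison set, at 1298 ± 203 in p3 at day 4 and 1662 ± 486 at day 6.

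Among the other genes of the floor plate and Foxa list, the element with the largest day 6 excess was 86 kb upstream of Spon1, which encodes F-spondin, a secreted floor plate protein. It was at 4.04, 3.79, 10.5, 11.1 and 12.0 normalized counts in p3 at day 4, 135, 96.8, 105, 76.9 and 118 at day 5 and 339.7, 366, 304 and 529 at day 6. In pMN at day 5 it held 12.1, 11.0, 7.99, 9.13 and 23.4, without overlap with p3 (difference 2.33 ± 0.18 (SE), adjusted p = 4.74e-08). An element 211 kb upstream of Ferd3l, a bHLH gene of the floor plate, reached 342 ± 117 in p3 at day 6 against 37.6 ± 24.0 in pMN, and 1 in an intron of Lmx1b 436 ± 157 against 120.2 ± 51.7. The element 102 kb from Foxa1 was below the limit of 1 at day 5 (difference 0.69 ± 0.14 (SE), adjusted p = 7.51e-04). In this list 8 of 180 elements (4.44%) were members and 7 of the 8 were called at day 5.

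The p3 and V3 list had 4 members of 129 elements (3.10%), of which 3 were called at day 5. Nkx2-9, a homeobox gene of the p3 domain, had an element 5.4 kb upstream (chr12:56618535-56618838) that held 60.6, 116, 229, 174 and 223 in p3 at day 4, 348, 272, 364, 266 and 393 at day 5 and 381, 432, 282 and 354 at day 6. In pMN it held 72.4, 69.0, 69.3, 97.4 and 111 at day 5 (difference 1.83 ± 0.15 (SE), adjusted p = 7.37e-08), and in p0-1 it held between 8.33 and 14.4. The p3 samples of day 5 and day 6 overlapped. An element 93 kb upstream of Sim1, a transcription factor gene of V3 neurons, went in p3 from 22.7 ± 17.6 through 68.1 ± 21.1 to 164 ± 42.3, with 14.2 ± 4.78 in pMN. The element of Nkx6-1, a homeobox gene shared by p2, pMN and p3, was at 244 ± 34.7 in p3 at day 6. It had a day 5 difference of 0.75 ± 0.18 (SE), adjusted p = 0.0021 and was not called.

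Axon guidance genes held 10 members among 542 elements (1.85%), of which 7 were called at day 5. The Slit genes, which encode secreted repellents of the midline, had 5. The Slit2 element with the largest excess (intron 4) went from 8.59 ± 7.09 to 186 ± 93.9 in p3, that of Slit1 (intron 1) from 28.5 ± 7.22 to 275 ± 27.5, and that of Slit3 from 229 ± 100.1 to 555 ± 82.5. The first and second were called against pMN at day 5 and that of Slit3 was not (difference 0.81 ± 0.26 (SE), adjusted p = 0.0149). Robo2, which encodes a Slit receptor, had an element in intron 1 at 250.3 ± 16.7 in p3 and 60.9 ± 16.3 in pMN at day 6. Those of Epha7, Efnb2, Sema3a and Sema5a, an Eph receptor, an ephrin and semaphorins, were at 339.8 ± 51.4, 144 ± 68.4, 124 ± 42.8 and 388 ± 61.4 in p3 at day 6. Of these, the Sema5a element was not called at day 5 (79.8 ± 23.9 in p3 and 35.3 ± 5.86 in pMN).

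The remaining lists held few members or 0. BMP, TGF-beta and Wnt genes had 3 of 324 elements (0.926%). At day 6 the element of Bmpr1b, a BMP receptor gene, was at 312 ± 98.3 in p3, 23.0 ± 13.0 in pMN and 59.0 ± 63.7 in p0-1. That of Wnt5b was at 768 ± 62.1 in p3 against 240.3 ± 60.3 in pMN. The Rfx and cilia list had 1 of 85 elements, in intron 1 of Rfx2, a gene for an RFX factor, at 184 ± 93.7 against 24.4 ± 14.2. The late progenitor and glial list had 1 of 125, upstream of Slc1a3, a glutamate transporter gene of radial glia, which went in p3 from 306 ± 84.2 to 128 ± 39.0 and in pMN from 312 ± 69.1 to 34.3 ± 23.5. These 5 members were called against pMN at day 5. At the Bmpr1b element the p3 and p0-1 samples overlapped at day 5 (difference 1.50 ± 0.29 (SE)). The lists of other neural progenitor identity (188 elements), endoderm (108), Notch and Hes (99) and motor neurons and ventral interneurons (67) had 0 members, and 2, 3, 2 and 0 elements of the comparison set.

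The 6 elements with the largest excess at day 6 lay 86 to 280 kb from the nearest gene start. The element 141 kb upstream of Ankrd50 (chr3:38625385-38626209), whose sequence is given above, held 2.02, 3.79, 10.5, 9.11 and 14.2 normalized counts in p3 at day 4, 93.3, 34.4, 66.0, 41.9 and 170.3 at day 5 and 213, 574, 234 and 861 at day 6. In pMN it held 8.30, 5.52, 14.2, 5.07 and 14.4 at day 5 and 10.8, 28.2, 9.02 and 52.5 at day 6, below every p3 sample of the same day. The day 6 values chose the element, and those of day 5 did not. The element 87 kb upstream of Tbx20 (chr9:24860501-24861748) held 44.4, 36.0, 86.8, 80.0 and 104 in p3 at day 4, 520.3, 358, 615, 419.6 and 752 at day 5 and 959.7, 1121, 935 and 1124 at day 6. In pMN it held 52.0, 69.9, 119.9, 66.9 and 136 at day 5, again without overlap (difference 2.45 ± 0.23 (SE), adjusted p = 3.03e-07). The next were elements nearest to Adam7, Rybp, 1700123O21Rik and Klf4, which went in p3 from 4.34 ± 3.79, 29.1 ± 3.33, 25.6 ± 9.55 and 6.61 ± 1.80 at day 4 to 301 ± 91.6, 403 ± 59.5, 579.7 ± 56.6 and 358 ± 82.3 at day 6. All 6 were intergenic and called higher in p3 than in pMN at day 5.

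Among the largest day 5 differences from pMN without sample overlap were those at elements of Metrnl, Rufy1, Wdfy4, Ccdc77 and Clock. The Metrnl element (chr11:121738402-121739418, intergenic), with its pair of RFX matches, held 131, 96.7, 162, 176 and 209 in p3 at day 4, 917, 726, 672, 699 and 881 at day 5 and 856, 1546, 1056 and 1856 at day 6. In pMN it held 55.8, 39.5, 40.0, 56.8 and 66.7 at day 5 (difference 3.64 ± 0.14 (SE), adjusted p = 1.69e-10). In p0-1 it held between 106 and 674 at day 5, and the difference of p3 from p0-1 was 1.69 ± 0.33 (SE). The Rufy1 element, in intron 9, was at 29.3 ± 9.22, 241 ± 38.6 and 469 ± 60.2 in p3 at days 4, 5 and 6, and at 22.1 ± 4.86 in pMN at day 5. The elements of Wdfy4, Clock and Ccdc77 were at 95.4 ± 26.6, 196 ± 38.6 and 163 ± 34.9 in p3 at day 5 and at 4.56 ± 2.40, 19.3 ± 4.58 and 13.4 ± 4.77 in pMN.

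**Figure D4:**
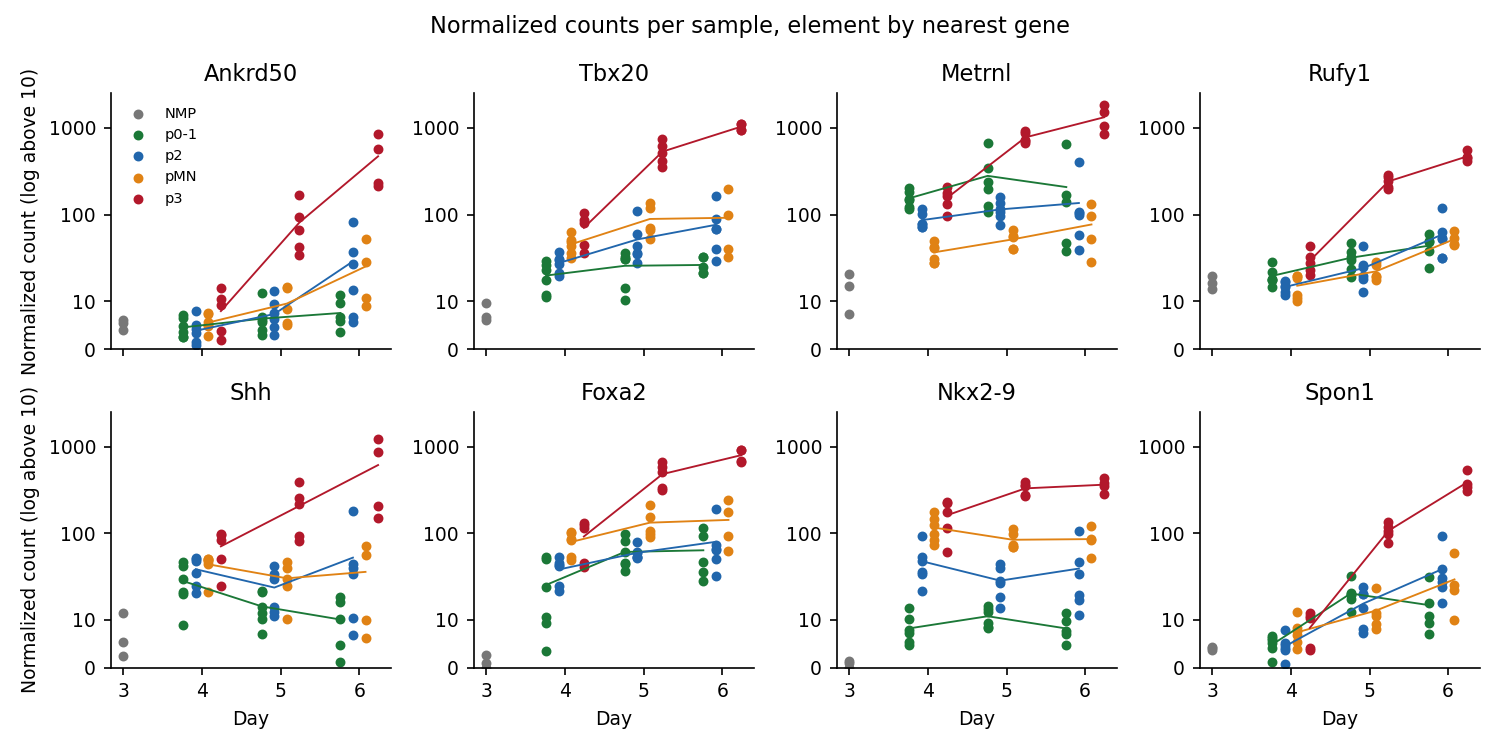
Normalized count (y axis, linear to 10 and logarithmic above) in every sample by day (x axis) for 8 elements named by their nearest gene; points are samples of NMP, p0-1, p2, pMN and p3, and lines join the means of a cell type. In all panels every p3 sample of day 6 lies above every pMN sample of day 6, and the p3 means of every panel are higher at day 6 than at day 4. Values of days 4 and 6 chose the elements, so neither pattern is a test.

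The 1184 elements had 1071 different nearest genes. Of these genes, 970 had 1 member, 90 had 2, 10 had 3 (Frmd4b, 1700123O21Rik, Sox5, Sox6, Ptpru, Olfm4, Gm8096, Fam49b, 9330178D15Rik and Lamp5) and 1, Foxa2, had 4. How many of all elements lie nearest to each gene is not given here, so these counts do not show a concentration at any gene. The 30 elements of the 10 genes had day 6 excesses between 1.55 and 3.33 and day 5 excesses between -0.11 and 2.50, and 23 of them were called higher in p3 than in pMN at day 5. Those of Sox5 and Sox6, genes for SoxD transcription factors, reached 545 ± 44.6, 244 ± 70.5 and 345 ± 37.1 at Sox5 and 224 ± 43.0, 302 ± 33.6 and 366 ± 172 at Sox6 in p3 at day 6. A nearest gene with an element of the comparison set was shared by 285 members (24.1%, against 18.3% of all elements). Another member lay within 50 kb of 133 members (11.2%) and of 6.28% of the other elements, and an element of the comparison set within 50 kb of 163 members (13.8%, against 10.5% of all elements).

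Members were distal. By the deposited annotation 580 (49.0%) were intronic, 552 (46.6%) intergenic, 27 exonic, 15 at a transcription termination site and 10 (0.845%) at a promoter, where 7.41% of all elements and 1.17% of the comparison set lay. The median distance to the nearest transcription start site was 47.1 kb, against 32.6 kb for all elements and 51.4 kb for the comparison set. The median width was 957 bp (883 bp for all elements), and the median GC content of the central 300 bp was 46.0% (48.0%). In the comparison set 48.9% were intronic and 46.9% intergenic, and the shares are descriptions without a test.

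Matches to forkhead and RFX motifs were counted in members and in the comparison set. Within 300 bp around the center, on either strand, the forkhead motif TGTTTAC was found in 112 members (9.46%, 95% Wilson interval 7.92 to 11.3), in 17.1% of the comparison set (15.4 to 18.9) and in 4.96% of all elements. The RFX motif GTTGCCNNG was found in 152 members (12.8%, 11.1 to 14.9), in 8.08% of the comparison set (6.91 to 9.43) and in 4.65% of all elements. The intervals of both sets did not overlap for either motif, with forkhead matches more frequent in the comparison set and RFX matches in members. They cover counting error only and treat elements as independent. The RFX share was not planned and was picked out among the motifs counted. Among all elements outside promoters 5.17% held the forkhead and 4.58% the RFX motif. Among all elements with a p3 level of at least 7 at day 6, the shares were 4.51% and 6.23%. The homeodomain core TAATTA was found in 11.6% of members, 8.80% of the comparison set and 7.85% of all elements. The TEAD motif GGAATGT was found in 8.70% (7.22 to 10.4), 12.0% (10.6 to 13.6) and 6.84%, and its intervals in both sets did not overlap either. Both a forkhead and an RFX match were found in 17 members, and either in 20.9%.

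Other motifs are given as the share of members, of the comparison set and of all elements. NKX2 matches (TNAAGTG) were found in 15.8%, 17.1% and 15.0%. SOX matches (ACAATG) were found in 22.3%, 24.3% and 21.1%. GATA matches (AGATAA) were found in 18.0%, 18.4% and 14.5%. Matches to an NFI half-site (CTTGGCA) were found in 7.18%, 7.74% and 5.75%, and TCF/LEF matches (ATCAAAG) in 5.41%, 5.57% and 5.04%. GLI matches (GACCACC), the motif of the Hedgehog effectors, were found in 1.86%, 2.01% and 3.11%. Of the E-boxes, CAGCTG was found in 23.4% of members and 21.1% of all elements, CAGATG in 23.6% and 25.7%, and CATATG in 4.98% and 5.22%. The POU octamer (ATGCAAAT), CTCF (CCACNAGGG) and ONECUT (ATCGAT) motifs were found in 1.60%, 1.10% and 0.760% of members and in 2.30%, 1.82% and 0.892% of all elements. The day 5 difference of p3 from pMN, which the rule did not use, had a median of 1.49 in the 152 members with an RFX match and 1.40 in those without, and of 1.40 in the 112 with a forkhead match and 1.42 in those without. It was 1.28 in the 277 members with the E-box CAGCTG and 1.46 in those without, and 1.35 in the 137 with the homeodomain core and 1.43 in those without. A match is a run of letters and does not show that a factor is bound.

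**Figure D5:**
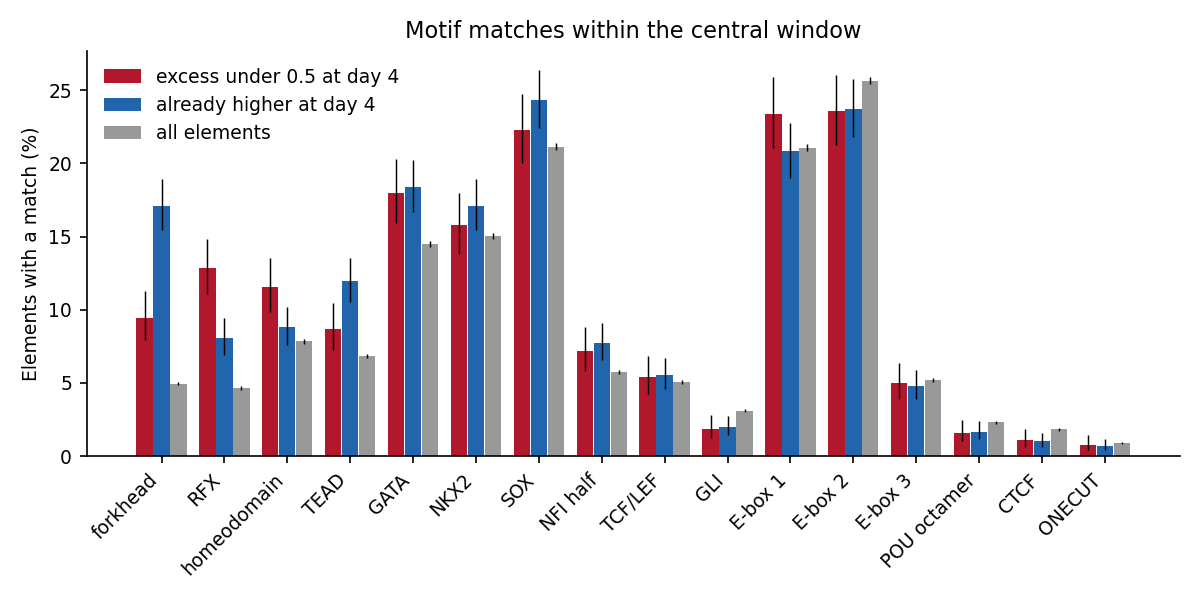
Percent of elements with at least 1 motif match in the central window (y axis) for 16 motifs (x axis) in the 1184 elements with a p3 excess under 0.5 at day 4, the 1795 with 0.5 or more and all 111638; bars run from 0, lines are 95% Wilson intervals, and E-box 1, 2 and 3 are the E-boxes in the order named in the text. The forkhead bar is lower for the 1184 elements (9.46%) than for the 1795 (17.1%), and the RFX bar is higher for the 1184 (12.8%) than for the 1795 (8.08%).

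Values at marker genes were set beside the sorted gates. Depth was between 9298160 and 29985325 reads in elements per sample, with a median of 20254011. The shallowest libraries were p3 of day 4 at 100 nM, replicate 1 (9298160) and replicate 2 (9577692). Their medians over members, 5.40 and 5.47, were the lowest of p3 at day 4, where the other p3 samples were at 6.00 to 6.13. The part of depth in the day 4 values was not tested. At elements of marker genes, pMN had the highest Olig2 count at every day (2325 at day 6, against 1005 in p3), p0-1 the highest Dbx1 count (2549 at day 6, against 631 in p3), and Nkx6-1 was lower in p0-1 than in the other types. At day 6 the Nkx2-9 promoter element was at 1914 ± 224 in p3 and 2091 ± 219 in pMN, and that of Foxa2 at 1662 ± 486 and 277 ± 55.4, but the Foxa2 element belongs to the comparison set and was thus chosen for its p3 excess. Nkx2-2 itself was not analysed here. Of the floor plate markers, the sum over elements of Shh, Ferd3l and Lmx1a was 645 to 837 in p3 at day 4, 844 to 1186 at day 5 and 1041 to 1634 at day 6, against 397 to 961 in the other NP samples of day 4, 357 to 491 at day 5 and 351 to 579 at day 6. Of these 3, the Shh element is a member and the Ferd3l element in the comparison set, so both were chosen for this pattern, while Lmx1a, chosen by neither, was at 409 ± 61.0 in p3 at day 4 and 330.1 ± 29.1 at day 6, when it was at 296 ± 35.8 in pMN, 346 ± 30.0 in p2 and 410.2 ± 47.7 in p0-1. The part of floor plate cells in the p3 values was not tested. The neuronal markers Tubb3 and Elavl3 were summed at 1780 to 2964 in p3 and 2639 to 3466 in pMN at day 6.

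Libraries numbered replicate 3 were higher at the members in every cell type. In 23 of the 24 NP conditions with a replicate 3, it had the highest median over members. The shift was not particular to members. Over the comparison set, replicate 3 also had the highest median in every condition but p0-1 of day 4. In day 6 p3 at 500 nM, replicates 2 and 3 were at 7.43 and 8.17 over members and 7.56 and 8.47 over the comparison set. Over all elements they were at 5.65 and 5.75. In p3 the mean level had a median of 7.43 in replicate 2 and 8.04 in replicate 3 at day 6, and 5.68, 5.47 and 6.06 in replicates 1, 2 and 3 at day 4. Compared within a replicate number, the median p3 excess at day 6 was 1.83 in replicate 2 and 1.87 in replicate 3, the day 5 excess was 1.35, 1.00 and 1.22 in replicates 1, 2 and 3, and that of day 4 0.05, -0.04 and 0.30. In replicate 3 alone, 273 members had a day 4 excess of 0.5 or more. At day 6, whose values chose the members, the excess was at least 1.5 in 966 members in replicate 2 and 962 in replicate 3. There was no p3 or pMN sample of replicate 1 at day 6.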

How the data were processed

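CaTS-ATAC profiles of 67 samples (25 conditions, 17 with 3 replicates and 8 with 2, described as independent differentiations) were used. The authors processed reads with nf-core/atacseq on mm10, called peaks with MACS2, kept consensus elements, counted reads with featureCounts and deposited log2-like variance-stabilized (VST) values from DESeq2 for 111638 elements; nearest genes and classes came from the deposited HOMER annotation of 133549 elements. Whole reads were recovered by inverting the VST (100% of values within 0.001 reads of a whole number) and gave depths and normalized counts, that is, reads divided by the size factor; PCR duplicates and other effects beyond counting are not covered by intervals.

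The members and lists were chosen with earlier results of these data known. Named elements were the 6 with the largest day 6 excess, the 6 largest day 5 differences from pMN without overlap, the top element of each list gene, the 4 largest p3 rises and the 4 largest falls of the other types, the elements at each limit, and all elements of the genes with the most members (11 genes, since 10 were tied); some of these are not reported here. Tests used limma 3.58.1 (trend, two-sided) in R 4.3.3 on VST values over all elements, with Benjamini-Hochberg adjusted p under 0.01 and a difference above 1, and were tested on simulated data. Same-numbered samples deviated together in every pair of the comparisons within day 5 (lowest correlation 0.39), but not in every pair with NMPs (0.02). The numbers of the titles thus pair the NP samples of day 5, and 15 samples have another number in the description. The alternatives were a replicate block, other normalizations (voom, centring), filters, limits, windows and leaving out each sample. Sequences are from the GRCm38 reference.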

Additional observations from a re-analysis of the deposited data

Results flagged for a closer look

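In 108 groups of 4 to 6 samples, over 9 series of values, 11 had a sample that stood apart from the rest of its group by Dixon's test, which chance alone gives in about 1 group in 20.

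The p2 library of day 6, 100 nM SAG, replicate 3 stood apart in 7 of them. Its median VST level over the 1184 elements was 6.35, against 5.22 to 5.58 in the other 5 p2 samples of day 6. In this library the Metrnl element held 408 normalized counts (others 39.1 to 106), the Rufy1 element 119.5 (31.4 to 62.6), the Shh element 178 (6.79 to 44.1), the Foxa2 element 191 (31.8 to 73.3), the Nkx2-9 element 107 (11.4 to 45.9) and the Spon1 element 93.5 (15.5 to 38.6). Without this library the rule gives 1202 elements, of which 1181 are among the 1184.

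Among the other 4, the Metrnl element held 646 in day 6 p0-1 at 0 nM replicate 3 (others 38.0 to 168). The Shh element held 20.7 in day 4 pMN at 500 nM replicate 2, below the others (44.0 to 50.5). The Foxa2 element held 79.7 in day 5 p2 at 100 nM replicate 3 (51.7 to 60.8), and the Spon1 element 23.4 in day 5 pMN at 500 nM replicate 3 (7.99 to 12.1). All but that of the Shh element were in libraries numbered replicate 3.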

How the results depend on the processing

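The members called higher in p3 at day 5 numbered 901 to 1048 against pMN, 931 to 1038 against p2 and 869 to 982 against p0-1 when each sample was left out in turn, and 891 to 1042 against pMN at 100 nM. The replicate block moved the count by more than 1.5 times only at 500 nM, to 993 (993 also with the numbers of the descriptions); there, centring samples gave 970 and leaving out 1 sample 89 to 1084. Testing only elements with a mean above 100 normalized counts over the samples compared gave 386 calls against pMN, 353 against p2 and 331 against p0-1. It gave 362 at 100 nM, 160 at 500 nM, 423 against NMPs and 22 between pMN and p0-1. This filter leaves members with low counts untested. A member that passes it through p3 alone had to differ, so no conclusion is drawn from these counts. Of the 81 elements given by the naming rule, 39 kept their side of the threshold under it. In 1 the call was lost, and the rest were not tested. A difference above 2 gave 145, 133, 206, 152 and 129 against pMN, p2, p0-1 and at 100 and 500 nM, and 4 between pMN and p0-1. Between pMN and p0-1, a 2-fold limit on mean normalized counts gave 210 and voom 201 (200 with quantile normalization), and leaving out samples gave 83 to 104; against NMPs it gave 1041 to 1056, and 0 to 0 between SAG concentrations. The number of elements chosen was 678 with a day 4 limit of 0.25, 2152 with a limit of 1, 1043 with means taken per SAG concentration first, 1201 and 1228 with log2 of counts plus 1 and plus 10, 906 with centred samples, and 890 (without day 6 p3 at 500 nM replicate 3) to 1481 (without day 6 p3 at 100 nM replicate 2) when samples were left out. Those whose p3 mean rose by 1 or more numbered 573 and 1672 with the limits 0.25 and 1 and 723 to 1218 without single samples. The forkhead share of members was 5.74% in 200 bp (12.6% in the comparison set, 3.32% of all elements). It was 26.7% in whole elements (34.7% and 14.3%) and 21.5% with the looser motif (32.5% and 15.0%). The RFX share, with settings chosen after seeing the data, was 9.29% in 200 bp (5.40% and 3.24%) and 25.1% in whole elements (19.6% and 13.5%). With a limit of 0.25 it was 12.8%. Of 1417 values over alternatives for the 81 elements given by the naming rule, 1323 kept their direction and their side of the threshold, 75 lost and 18 gained the call, and 1 changed direction, the Frmd4b element at -0.039 without day 5 p3 at 500 nM replicate 3. Where no construction shows it, the cause was not tested.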
